A study of Zea mays with 6 samples.

Results

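The 100 genes that took the most reads in wild-type young maize ears were followed across 3 genotypes. They were chosen by their level alone: counts were divided by the library total to give counts per 1000000 reads (CPM), and the 100 genes with the highest mean CPM over both wild-type libraries were taken out of 45578 in the table. All 100 carry Zm00001d identifiers, and 0 of them are among the 154 microRNA genes or the 1635 genes with ENSRNA identifiers. The sources used here pair none of these identifiers with a gene name (0 of 100 matched the reference table), so the genes appear by identifier, with no function or position. CPM is not corrected for gene length, so the order below is an order of reads and not of transcript molecules.

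RNA came from ears up to 0.5 cm long. The groups were 1 overexpression line of RHW1 (OE#1), a CRISPR line labelled as an RHW1 knockout, and wild type, with 2 libraries each. By the title of the series, RHW1 and ZCN4 form a pathway that sets how wide the husk leaves around the ear grow. ZCN4 belongs to the family of TERMINAL FLOWER1, which acts on inflorescence development. The sources used here do not give the inbred background, the transgene's promoter, the edited allele or whether replicate libraries were made from different plants. The p-values therefore measure only the spread between these libraries, which may be technical. Without names, neither RHW1 nor markers of the tissue were checked.

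As background, the most heavily sequenced messages of a dividing plant tissue usually include those for histones, ribosomal proteins, translation factors, tubulins and chaperones, which serve growth in every cell. Because a library is a fixed pool of reads, a gene that takes a larger share leaves less for all others, and CPM values are shares of that pool. In a whole ear, fewer cells of a type and less RNA per cell cannot be told apart. Which of the 100 genes encode such proteins was not analysed here.

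Library totals ran from 21094445 to 23999698 reads. The 100 genes had 10831 to 63910 reads each in a wild-type library, and the lowest count of any of them in any library was 2948. Their mean level in wild type ran from 485 to 2794 CPM, with a median of 732 CPM. At the edge of the rule, the genes ranked 99 and 100 had 489.7 and 485.3 CPM, and the next genes below had 483.3 and 481.8 CPM. All 100 were among the 22947 genes that passed the filter on low counts.

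Replicates lay close together. The median member differed between both libraries of a genotype by 1.014-fold in overexpression, 1.017-fold in the knockout and 1.016-fold in wild type. The widest gaps were 1.07-fold, 1.08-fold and 1.08-fold in the same order of genotypes. These gaps still exceeded counting noise: the mean chi-square per member was 2.86 in overexpression, 6.47 in the knockout and 6.07 in wild type, where counting alone gives about 1. No pair of libraries was therefore taken for a single library.

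**Figure D1:**
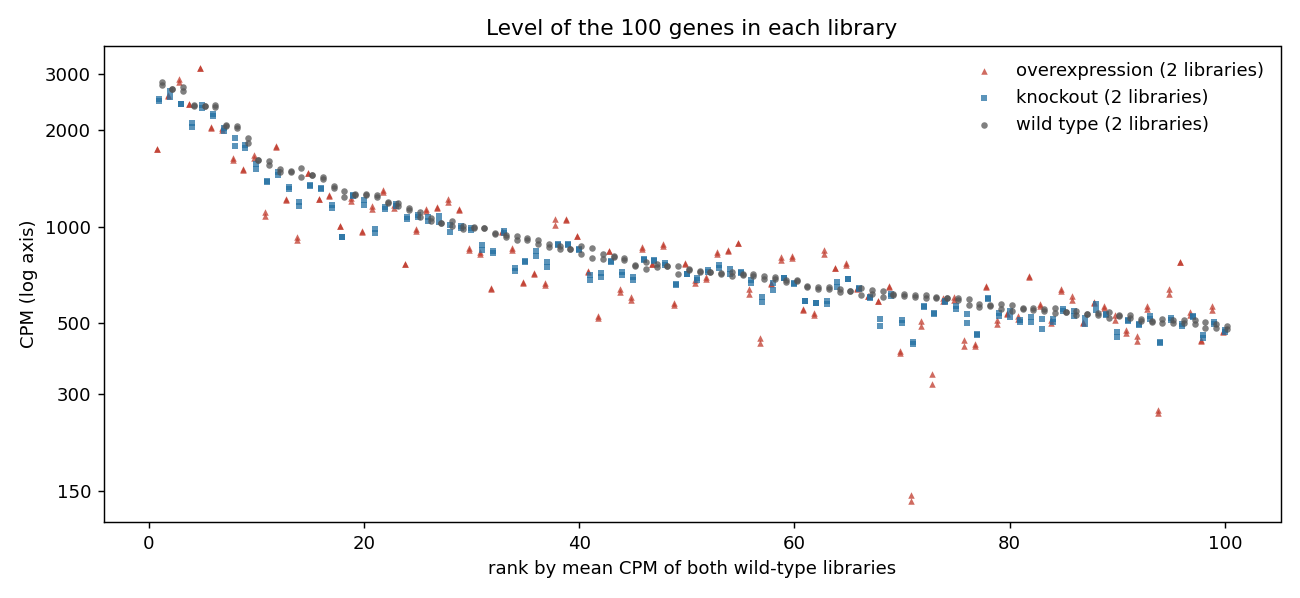
CPM (log axis) of each of the 100 genes in each of the 6 libraries, with genes in order of their wild-type level. Most overexpression and knockout points lie close to the wild-type curve that ordered the genes, and 1 gene, ranked 71, lies far below it in both overexpression libraries.

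The set took less of the library in both modified lines than in wild type. Its share was 8.92% and 8.93% of reads in the overexpression libraries, 8.79% and 8.90% in the knockout libraries and 9.41% and 9.46% in the wild-type libraries. The groups did not overlap. Since wild-type levels chose the genes, a lower share elsewhere was favoured by the choice. A measure that treats all genotypes alike is each library's own 100 most read genes. These took 9.09% and 9.10% in overexpression, 8.80% and 8.92% in the knockout, and 9.41% and 9.46% in wild type, again without overlap. With 2 libraries against 2, the smallest two-sided exact permutation p is 0.33, so no test of these shares could pass.

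The single most read gene differed between genotypes. In wild type it was Zm00001d041550, with 2764 and 2824 CPM. This gene had 1744 and 1752 CPM in overexpression and 2468 and 2502 CPM in the knockout, so the genotypes did not overlap and overexpression was lowest. In overexpression the most read gene was Zm00001d047253, ranked 5 in wild type. Its levels were 3142 and 3129 CPM in overexpression, 2351 and 2407 CPM in the knockout, and 2386 and 2390 CPM in wild type. Overexpression thus stood above both other genotypes, which overlapped. In the knockout it was Zm00001d031168, ranked 2 in wild type. This gene varied little between genotypes, though both modified lines were called lower than wild type. It had 2557 and 2578 CPM in overexpression, 2551 and 2663 CPM in the knockout, and 2703 and 2693 CPM in wild type.

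Most of the set stayed near the top. Of the 100 genes, 89 were among the 100 most read by mean CPM in overexpression and 95 in the knockout. The gene that dropped furthest was Zm00001d016070. It stood at rank 71 in wild type, against rank 1344 in overexpression and rank 113 in the knockout.

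The comparison of overexpression with the knockout set gain against loss of RHW1, as labelled, and set no wild-type value on either side, so the levels that chose the genes are not part of its fold changes. The wild-type libraries still entered the fit through its scaling and its estimate of the spread; a fit of the 4 overexpression and knockout libraries alone also called 46 members higher and 33 lower. Here 46 of the 100 genes rose and 33 fell in overexpression (edgeR quasi-likelihood test, adjusted p under 0.05 over all tested genes). These 79 calls stand beside 26.7% of all tested genes, with 14.1% called higher and 12.6% lower. Calls came more often at high counts in general: among the genes ranked 101 to 200 in wild type, 75 of 100 were called. The share of calls among the 100 genes was therefore close to that of the next genes in rank. Their median log2 fold change was 0.039, against -0.003 over all tested genes.

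Most of these changes were small. The median called member differed by 1.14-fold and the smallest call was at 1.05-fold, while the median called gene over the whole table differed by 1.24-fold. The counts of the members gave a median standard error of 0.022 on the log2 scale, against 0.10 over all tested genes. At 1.2-fold or more there were 23 members, 11 higher and 12 lower, beside 32.2% of all tested genes and 16 of the 100 genes ranked 101 to 200. A change of 1.5-fold or more that passed the test was seen in 4 members, which is 4% of the set, beside 4.49% of all tested genes.

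Those 4 were 3 falls and 1 rise. Zm00001d016070 had 140 and 146 CPM in overexpression, against 432 and 438 CPM in the knockout. Its level in overexpression was 0.334 times that of the knockout (95% interval 0.320 to 0.348), a log2 fold change of -1.58 (SE 0.029, edgeR adjusted p = 5.34e-32). No other member changed 2-fold in this comparison.

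Zm00001d020898 and Zm00001d020910 fell by similar amounts. The first had 262 and 268 CPM in overexpression, against 437 and 435 CPM in the knockout, a log2 fold change of -0.70 (SE 0.027, edgeR adjusted p = 1.25e-21). Zm00001d020910 had 323 and 346 CPM in overexpression, against 539 and 535 CPM in the knockout, a log2 fold change of -0.66 (SE 0.027, edgeR adjusted p = 8.47e-21). In both genes each overexpression library lay below each knockout library.

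The rise was that of Zm00001d050375, with 774 and 775 CPM in overexpression, against 498 and 491 CPM in the knockout. Its log2 fold change was 0.67 (SE 0.023, edgeR adjusted p = 2.87e-23). The next largest rise was that of Zm00001d033605, with 848 and 823 CPM in overexpression, against 576 and 585 CPM in the knockout, a log2 fold change of 0.55 (SE 0.023, edgeR adjusted p = 8.47e-21). The groups overlapped for neither gene. Over the whole set, 90 members had groups that did not overlap, beside 61.6% of all tested genes.

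**Figure D2:**
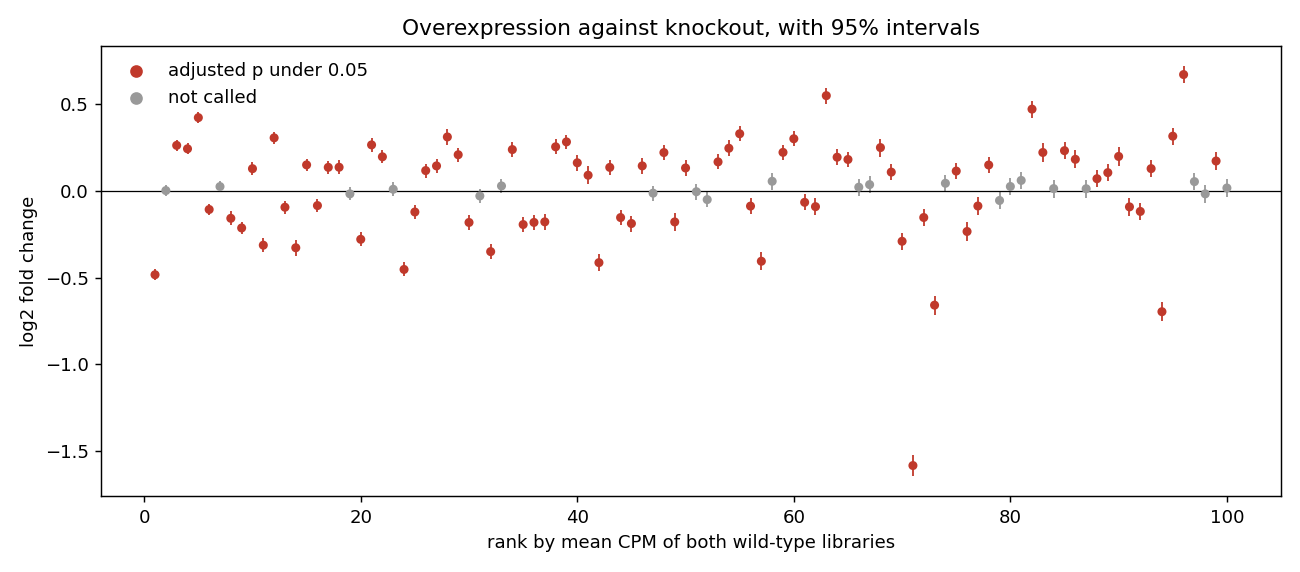
Log2 fold change of overexpression against the knockout for each of the 100 genes, with its 95% interval, in order of wild-type level; red points passed the test and grey points did not. Points spread on both sides of 0 at all ranks, and the lowest, at -1.58, is Zm00001d016070.

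In CPM, which leaves out the scaling factors of the fit, the rises and falls nearly balanced. With those factors, 60 members had a log2 fold change above 0 and 40 below. Summed over the 54 members with a higher mean CPM in overexpression, the difference from the knockout was 6254 CPM, and over the 46 with a lower mean it was -5438 CPM, which left a net of 816 CPM. Zm00001d047253 alone accounted for 756 CPM of the gain and Zm00001d041550 for -736 CPM of the loss. Both changes passed the test, with log2 fold changes of 0.42 (SE 0.015, edgeR adjusted p = 1.52e-22) and -0.48 (SE 0.016, edgeR adjusted p = 5.94e-24).

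Wild-type values chose the genes, so the 2 comparisons with wild type are given as sizes and counts, and their calls are read as descriptions. Both use the same wild-type libraries. In overexpression 37 members were called higher and 46 lower than wild type, 83 in all, beside 29.2% of tested genes (15.3% higher and 13.9% lower). The groups did not overlap in 94 members, beside 63.1% of tested genes. The median log2 fold change of the set was -0.038, against -0.005 for all tested genes. At 1.2-fold or more, 11 members were higher and 24 lower, 35 in all, beside 33.3% of all tested genes and 16 of the 100 genes ranked 101 to 200. At 1.5-fold or more there were 8 called members (beside 4.61% of tested genes), 7 lower and 1 higher.

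The lowest against wild type in overexpression were Zm00001d016070 and Zm00001d020898, the pair that was also lowest against the knockout. Zm00001d016070 had 604 and 613 CPM in wild type, and its level in overexpression was 0.237 times that (log2 fold change -2.08, SE 0.029). Zm00001d020898 had 501 and 514 CPM in wild type, and its log2 fold change in overexpression was -0.92 (SE 0.027). The highest against wild type were Zm00001d050375, which had 510 and 502 CPM in wild type and a log2 fold change of 0.63 (SE 0.023), and Zm00001d047253, at 0.41 (SE 0.015).

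In the knockout nearly all called members were lower. Of 56 called members, 54 were lower and 2 higher than wild type, beside 8.52% of tested genes called, 4.04% higher and 4.48% lower. The groups did not overlap in 86 members, beside 49.3% of tested genes. The median log2 fold change of the set was -0.074, against 0.001 for all tested genes. Of the 100 genes, 75 had a fold change below 1, against 49.8% of tested genes. With the 100 genes taken instead by their mean over all 6 libraries, which weights the genotypes equally and shares 96 of the genes, 51 were called lower and 2 higher in the knockout. The genes ranked 101 to 200 had 36 called lower and 6 higher, with a median of -0.036.

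The knockout differences were small. At 1.2-fold or more there were 8 members, each of them lower, beside 3 of the 100 genes ranked 101 to 200. Over all tested genes that share was 19.6%, and it was 31.7% in the class of lowest level, ranks 10001 to 45578. At 1.5-fold or more 0 members were called in edgeR, beside 0.824% of tested genes. In edgeR 0 members reached 1.5-fold at all, whether called or not, so a looser p threshold could not have raised this count. In DESeq2 and in limma-voom the count was also 0, at an adjusted or unadjusted p under 0.05. Zm00001d016070 was at 0.711 times wild type (log2 fold change -0.49, SE 0.026). Zm00001d048702 had 927 and 930 CPM in the knockout, against 1290 and 1242 CPM in wild type, a log2 fold change of -0.45 (SE 0.020). The 2 genes called higher were Zm00001d026111, with 688 and 686 CPM in the knockout and 628 and 632 CPM in wild type (log2 fold change 0.12, SE 0.022), and Zm00001d017251, with 742 and 759 CPM in the knockout and 716 and 710 CPM in wild type (log2 fold change 0.066, SE 0.022). The second call was lost under 11 of 16 alternatives, and the first under none of them.

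**Figure D3:**
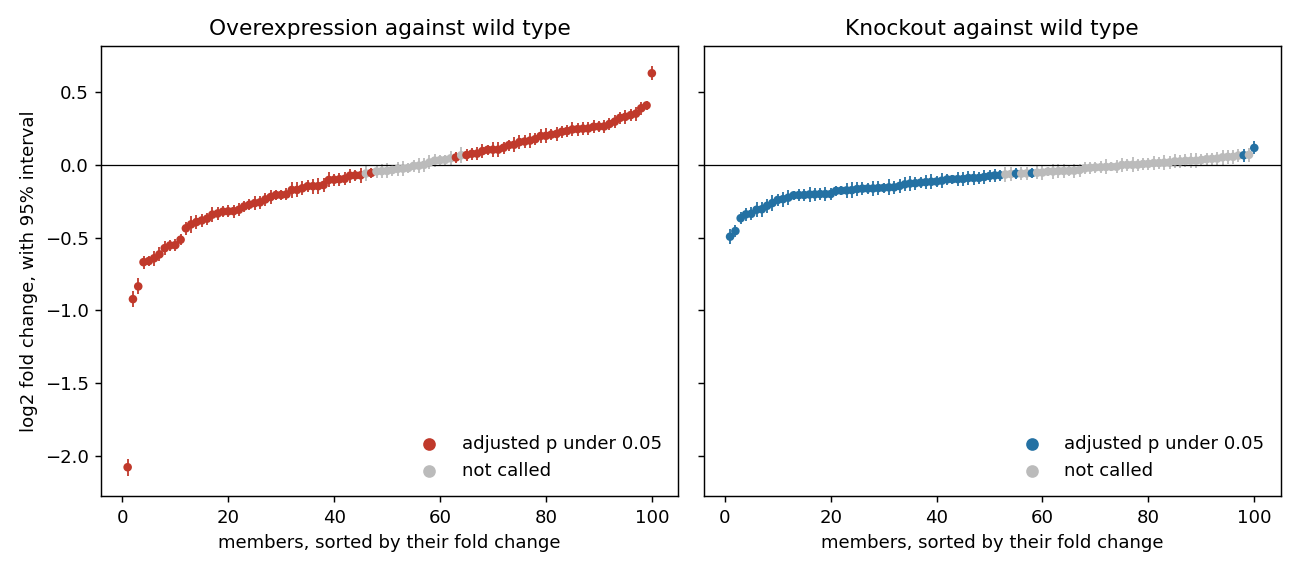
Log2 fold changes of the 100 genes against wild type, each panel sorted by its own values, with 95% intervals; overexpression on the left, knockout on the right. The overexpression values run from -2.08 to 0.63 on both sides of 0, while the knockout values run from -0.49 to 0.12 with 54 called below 0 and 2 above.

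The differences in reads were spread over many genes. Against wild type, the net difference of the set was -5126 CPM in overexpression, made of -10011 CPM over 57 genes and 4885 CPM over 43 genes. In the knockout the net was -5941 CPM, made of -6440 CPM over 74 genes and 499 CPM over 26 genes. The 5 largest negative differences made up 29.8% of the negative sum in overexpression and 23.9% of that in the knockout.

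The order of the 3 genotypes was read from the CPM values where no libraries of different genotypes overlapped. In 35 members overexpression was lowest, the knockout came next and wild type was highest, beside 5.95% of tested genes. In 17 members overexpression was highest, the knockout came next and wild type was lowest, beside 5.99%. The knockout was lowest and overexpression highest in 13 members, beside 3.93%, and the knockout was lowest and wild type highest in 8, beside 1.59%. The order with overexpression lowest and the knockout highest was seen in 1 member, Zm00001d028896, beside 5.57%. That gene was called in no comparison, and its 722 and 733 CPM in the knockout lay close to 721 and 721 CPM in wild type. The order with wild type lowest and the knockout highest was seen in 0, beside 1.88%. Some libraries overlapped in the other 26, beside 75.1% of tested genes. Orders with wild type at the top were favoured by the choice of the genes.

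Genes with close identifier numbers were looked at together, a grouping chosen after the values were seen, so no p-values are given for it. In 3 runs, holding 7 members, the numbers lay at most 10 apart. The numbers of Zm00001d020898 and Zm00001d020910, described above, lay just outside that window. Whether the genes of the runs or of this pair are neighbouring or near-identical was not analysed here. Reads shared between similar copies would make their counts uncertain.

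The run of Zm00001d048702, Zm00001d048703 and Zm00001d048705 held 3 of the 8 members that were at least 1.2-fold lower in the knockout. Zm00001d048703 had 860 and 845 CPM in overexpression, 728 and 742 CPM in the knockout, and 936 and 910 CPM in wild type. Zm00001d048705 had 1160 and 1139 CPM in overexpression, 958 and 986 CPM in the knockout, and 1259 and 1235 CPM in wild type. In all 3 genes the knockout was lowest and wild type highest. Overexpression lay above the knockout by log2 fold changes of 0.14, 0.24 and 0.26 (SE 0.020, 0.022 and 0.020).

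In the pair Zm00001d035561 and Zm00001d035562, ranked 4 and 3 in wild type, the knockout was also lowest. The first had 2423 and 2422 CPM in overexpression, 2055 and 2108 CPM in the knockout, and 2401 and 2387 CPM in wild type. The second had 2831 and 2886 CPM in overexpression, 2420 and 2425 CPM in the knockout, and 2730 and 2650 CPM in wild type. Overexpression lay above the knockout by log2 fold changes of 0.24 and 0.26 (SE 0.016 for both). In the pair Zm00001d006008 and Zm00001d006010 overexpression was lowest, with log2 fold changes against the knockout of -0.31 and -0.19.

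**Figure D4:**
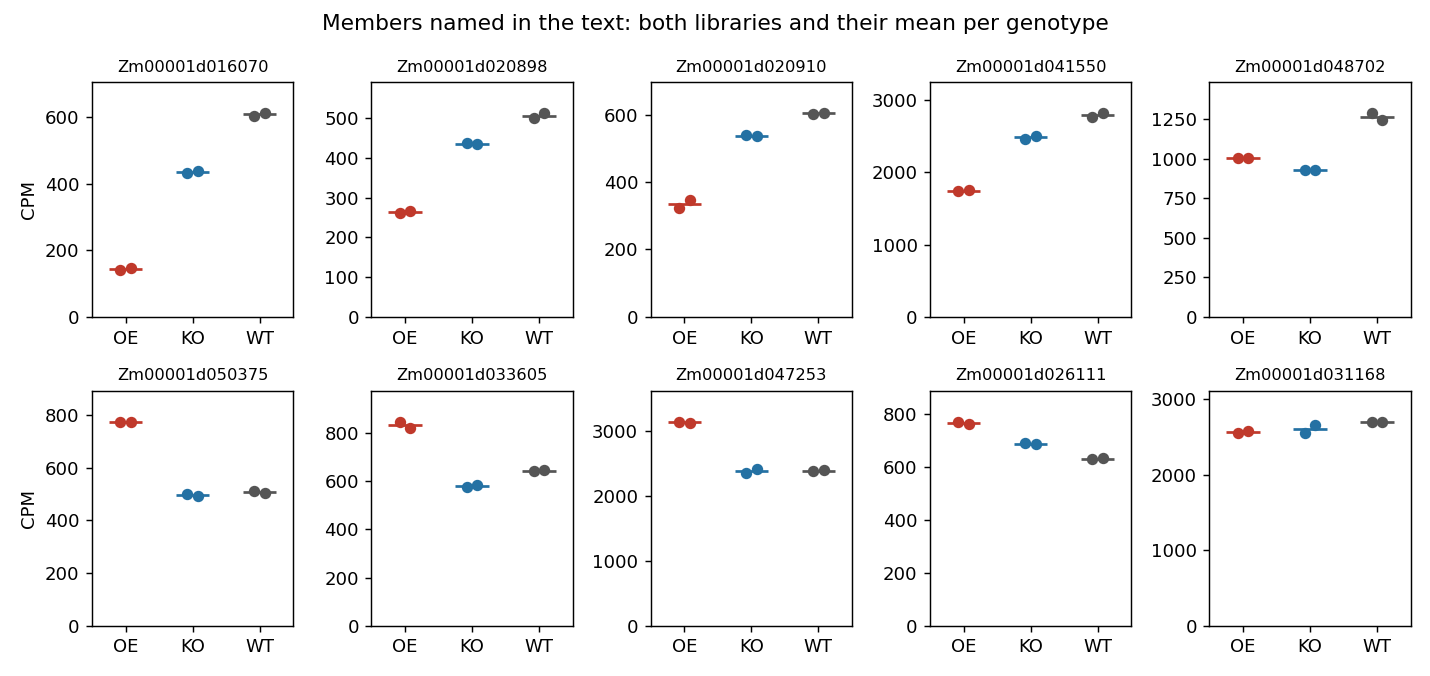
CPM of 10 members named in the text, with both libraries of a genotype as points and their mean as a line (OE, overexpression; KO, knockout; WT, wild type); each panel has its own axis from 0. Libraries of a genotype lie close together, and Zm00001d016070 ranges from 140 CPM in overexpression to 613 CPM in wild type.

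Part of the set hardly varied. In the 21 members not called between overexpression and the knockout, the fold change lay between 0.962 and 1.04, and no 95% interval reached below 0.928 or above 1.08. The 95% interval lay within 1.1-fold in 26 members for overexpression against the knockout (beside 5.33% of tested genes), in 26 for overexpression against wild type (4.65%) and in 54 for the knockout against wild type (8.14%). In 13 members it did so in all 3 comparisons, beside 1.64% of tested genes. They included Zm00001d031168 and Zm00001d013669. A member within this limit could still be called. Zm00001d031168 was called lower than wild type in overexpression (log2 fold change -0.056) and in the knockout (-0.057). Of 16 alternatives, 2 lost the first call and 3 the second. Zm00001d013669, called in no comparison, had 1208 and 1231 CPM in overexpression, 1258 and 1251 CPM in the knockout, and 1271 and 1256 CPM in wild type. Zm00001d041760, at a lower level, had 587 and 599 CPM in overexpression, 586 and 584 CPM in the knockout, and 598 and 601 CPM in wild type. Narrow intervals need high counts, so fewer genes of low level could meet this limit.

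Set against all other ranks, the 100 genes had the highest share of calls in each comparison, and the share fell with each lower class of rank. In overexpression against the knockout it was 79% in the 100 genes, 75% at ranks 101 to 200, 62.3% at ranks 201 to 500, 52.8% at ranks 501 to 1000 and 16.9% below rank 10000. The share of genes at least 1.2-fold apart did not follow that course. It was 23% in the 100 genes, 10.6% to 17.7% in the classes from rank 101 to 10000, and 45.2% below rank 10000, where replicates themselves differed by a median of 1.11-fold.

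**Figure D5:**
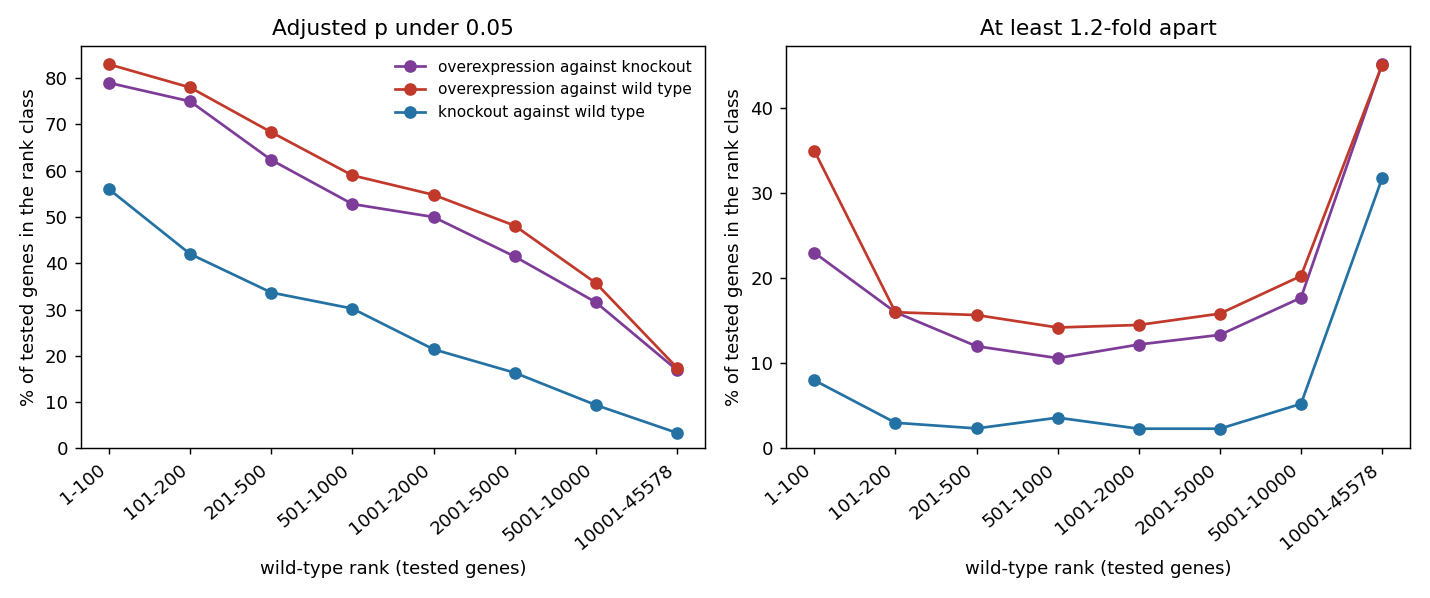
Share of tested genes called (left) and at least 1.2-fold apart whether called or not (right), by class of wild-type rank, for each comparison. Calls fall from left to right in all 3 comparisons, while differences of at least 1.2-fold are most common in the lowest class and more common in the top 100 than in the classes from rank 101 to 10000.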

How the data were processed

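Per the labels' protocols, total RNA was DNase-treated before library preparation with a NEBNext Ultra II RNA kit. The sources used here do not say how mRNA was selected or whether strand was kept. The authors deposited raw read counts per gene; the tools listed in the submitters' processing notes are HISAT2 2.1.0, StringTie, HTSeq, Trimmomatic 0.35 and edgeR 3.32.1, in no stated order. The sources used here name no genome build, annotation or counting option. Antisense and overlapping genes and near-identical copies therefore have uncertain counts.

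CPM was the count divided by the column total, times 1000000. Genes were kept with filterByExpr (minimum count 10; 22947 of 45578), given TMM factors (0.991 to 1.01), and compared in edgeR 4.0.16 under R 4.3.3 (quasi-likelihood, all 6 libraries, 3 group means, 3 residual and 33.2 prior degrees of freedom). Benjamini-Hochberg adjustment ran over all tested genes, with calls below 0.05. Standard errors are the fold change divided by the root of F. The fit was run on simulated counts, where only the recovered size of changes of 1.5-fold or more was checked. That check does not bear on smaller calls or on the rate of false calls. Alternatives were RLE and upper-quartile factors, TMM without the 100 genes, other filters, DESeq2 1.42.0, limma-voom 3.58.1, robust dispersions, 2-group fits, a replicate block, left-out libraries, other memberships and a 1.5-fold minimum.

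The members and lists were chosen with earlier results of these data known. Genes were named by level, by the largest called changes without overlap in each comparison, and at the edge of the rule, and only some of those are printed because they carry no gene names. Functional classes and tissue markers could not be formed without names.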

Additional observations from a re-analysis of the deposited data

Results flagged for a closer look

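In 5 members the modified lines were called on opposite sides of wild type, with overexpression higher and the knockout lower (edgeR), beside 0.501% of tested genes. These calls rest on the wild-type values that chose the set and are read as descriptions. Genes picked in this way differ between the lines by construction, so no test of that difference is given. The log2 fold change of overexpression against the knockout was 0.55 for Zm00001d033605, 0.47 for Zm00001d003401, 0.26 for Zm00001d035562, 0.20 for Zm00001d049239 and 0.13 for Zm00001d013159. Zm00001d003401 had 696 and 702 CPM in overexpression, 522 and 503 CPM in the knockout, and 558 and 549 CPM in wild type. Zm00001d013159 had 1681 and 1636 CPM in overexpression, 1514 and 1572 CPM in the knockout, and 1615 and 1622 CPM in wild type, and its place among the 5 was not stable: of 16 alternatives, 6 lost its call against wild type in overexpression (edgeR or DESeq2 adjusted p = 0.058 to 0.34) and 3 lost that in the knockout (edgeR adjusted p = 0.055 to 0.20). No member was called the other way round, lower in overexpression and higher in the knockout, beside 0.340% of tested genes.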

How the results depend on the processing

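The counts of called members (79, 83 and 56 for overexpression against the knockout, overexpression against wild type and the knockout against wild type) stayed within 1.5 times under every other scaling, filter, tool and fit tried, and with 1 library left out, where they ran from 75 to 79, 77 to 85 and 44 to 55. DESeq2 gave 77, 81 and 53, and limma-voom 83, 89 and 67. Replicate numbers did not pair the libraries (correlations of deviations 0.0032, -0.0096 and -0.010), and a replicate block gave 79, 82 and 53 calls. By construction, the 50 highest genes gave 43, 44 and 30 calls, the 200 highest gave 154, 161 and 98, and a 1.5-fold minimum left 4, 8 and 0 (0 also in DESeq2 and limma-voom). With genes chosen over all 6 libraries the share of reads was 9.03% in overexpression, 8.85% in the knockout and 9.40% in wild type. Of 1344 values of named genes, 5 changed sign, none of them called: Zm00001d031168 in overexpression against the knockout (-0.016 with upper-quartile factors, and -0.030 to 0.032 over the left-out libraries, below 0 without knockout replicate 1 and, at -0.0042, without overexpression replicate 2), Zm00001d003057 in the same comparison (-0.00077 with upper-quartile factors) and Zm00001d047253 in the knockout against wild type (-0.028 to 0.0046 over the left-out libraries, above 0 without knockout replicate 1). Another 27 lost their call and 5 gained one, and the cause was not tested. A denominator without organelle or ribosomal RNA was not run, since no identifier marks such genes. With 2 libraries a group, the spread between plants is unknown.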

Other observations

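Genes outside the set moved into the top ranks of the modified lines. The 100 most read genes of overexpression, by mean CPM, held 11 that were not among those of wild type, where they stood at ranks 105 to 214. The 100 most read genes of the knockout held 5 such genes, none of them below wild-type rank 123. The longest climb, singled out after its values were seen, was that of Zm00001d001820, at rank 67 in overexpression and rank 214 in wild type. It had 636 and 623 CPM in overexpression, 315 and 319 CPM in the knockout, and 341 and 335 CPM in wild type.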
